A study of Homo sapiens with 9 samples.

Results

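HEK293 is a human embryonic kidney cell line that was transformed with a stretch of adenovirus DNA and is used widely to express proteins from plasmids. MEK1, the product of MAP2K1, is the kinase that activates ERK in the RAS-RAF-MEK-ERK cascade. The cells described here expressed HA-tagged MEK1 WT from a stably introduced plasmid, were selected with puromycin and were grown in serum-containing medium, and RNA was taken under steady-state conditions. They account for 3 of the 9 arrays of the series, chosen by title, and each array is stated to come from an independent experiment on the same stable line. The source names of replicates 2 and 3 read HEK294 and HEK295, while their titles and cell line labels read HEK293, which is taken here. All 3 therefore carry the plasmid and the effect of selection, cells without the plasmid were not analysed here, and the spread between arrays covers repeat experiments, with no second derivation of the line. The other 6 arrays, of cells with MEK1 mutants, were not used.

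A cell type is recognised by the transcription factors, receptors, adhesion proteins and enzymes that it makes, since most genes of general upkeep are shared by all cells. The embryonic kidney holds nephron progenitors, stroma, ureteric bud and early tubules, and adrenal and nerve tissue lie beside it, so markers of all of these were examined. What follows describes which of these genes gave a signal and which did not, in WT cells alone and with no comparison to another cell line.

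Each array carried 50598 different probes. The signal of a probe is given as log2 of the processed intensity relative to the 75th percentile of its array, which puts this percentile at 0 and makes each step of 1 a 2-fold change in intensity. A probe counted as detected on an array if the scanner software called it well above background, and a gene was detected on all 3 arrays if at least 1 of its probes was, and not detected if none of its probes was on any array. The value of a gene is that of its brightest probe. Probes differ in how strongly they hybridize, so the order of genes by signal is not an order by number of transcripts. On the 3 arrays, 23926, 28478 and 28255 probes were well above background, and the lowest signal so called was -3.86, -5.44 and -4.92. A gene that was not detected is therefore known only to lie below about these levels.

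Of 18548 protein-coding genes, 13000 (70.1%) were detected on all 3 arrays, 1787 (9.63%) on 1 or 2, and 3761 (20.3%) on none. Among 1691 long noncoding RNA genes, 635 (37.6%) were detected on all 3 arrays. A laxer call of the scanner software, signal significantly over background, was met on at least 1 array by all but 1313 of the 3761 protein-coding genes that were not detected, and on all 3 arrays by 685 of them. Genes were then read through 57 lists of 1256 measured genes. Of these, detection on all 3 arrays was found for 142 of 290 lineage genes (49.0%), 194 of 357 receptor genes (54.3%), 132 of 213 adhesion genes (62.0%), 218 of 264 metabolic genes (82.6%) and 181 of 189 growth genes (95.8%). The shares for lineage, receptor and adhesion genes lay below the 70.1% of all protein-coding genes, and those for metabolic and growth genes above it.

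Levels followed the same order. The median log2 signal was -3.99 for lineage genes, -3.12 for receptor genes, -2.34 for adhesion genes, 1.0 for metabolic genes and 5.72 for growth genes, against -0.76 for all protein-coding genes. A signal above the 75th percentile of the array was found for 52 lineage genes (17.9%), 81 receptor genes (22.7%), 71 adhesion genes (33.3%), 157 metabolic genes (59.5%) and 160 growth genes (84.7%), and for 42.5% of all protein-coding genes.

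**Figure D1:**
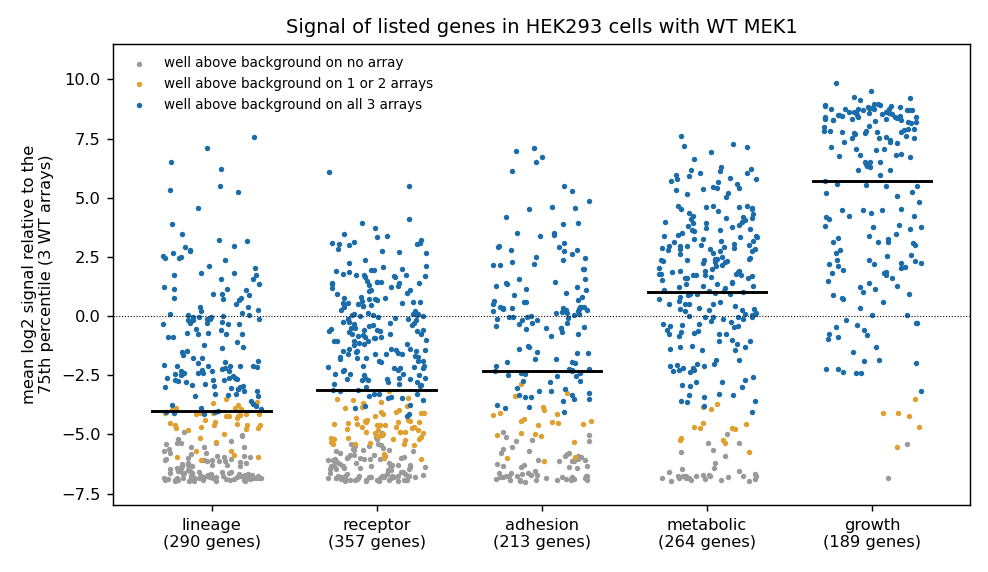
Mean log2 signal over the 3 WT arrays, relative to the 75th percentile of each array, of every measured gene of the lineage, receptor, adhesion, metabolic and growth lists. Each point is a gene, coloured by the number of arrays on which it was well above background, and each line is the median of a group. Lineage genes have the lowest median (-3.99) and growth genes the highest (5.72).

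Promoter sequence differed between genes with and without signal. RefSeq promoters (GRCh38.p14, 250 bases before to 50 bases after the first listed start) were matched by symbol for 14876 of the protein-coding genes. The median number of CG dinucleotides in the 300 bases was 26 for genes detected on all 3 arrays (quartiles 18 and 34), 13 for those detected on 1 or 2, and 5 for those not detected (quartiles 2 and 16), against 23 over all matched genes. By level, the median rose from 5 in genes with a mean log2 signal under -6 to 25 in those between -2 and 0, and then lay between 26 and 28 in every brighter class. The 6-letter sequence TATAAA, read on the gene's strand between 40 and 11 bases before the start, was present in 8.04% of genes not detected, in 2.15% of genes detected on all 3 arrays and in 3.66% of all matched genes. Its share was lowest, at 1.32%, between log2 0 and 2, and was 6.57% above 6. The difference in CG content held within the groups. The median was 17 for detected and 8 for undetected lineage genes, and 26.5 for detected and 4 for undetected metabolic genes.

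Windows of 4 promoters, from 120 bases before to 30 bases after the start, show the ends of this range, with each CG in capitals. LAMA5 and FGFR3 were the brightest of the basement membrane and receptor tyrosine kinase lists, and ALB and AFP encode the main plasma proteins of the adult and fetal liver, whose probes were not well above background on any array. LAMA5 lies at chr20:62367283-62367432 on the minus strand, FGFR3 at chr4:1793173-1793322, ALB at chr4:73404167-73404316 and AFP at chr4:73436101-73436250, the latter 3 on the plus strand of GRCh38.p14.
LAMA5: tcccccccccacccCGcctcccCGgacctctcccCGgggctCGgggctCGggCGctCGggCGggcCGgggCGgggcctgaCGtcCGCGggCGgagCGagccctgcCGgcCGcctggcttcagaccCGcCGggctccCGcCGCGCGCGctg
FGFR3: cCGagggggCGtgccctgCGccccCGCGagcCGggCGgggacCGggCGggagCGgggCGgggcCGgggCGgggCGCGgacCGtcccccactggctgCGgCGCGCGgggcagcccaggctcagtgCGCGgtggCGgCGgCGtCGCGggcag
ALB: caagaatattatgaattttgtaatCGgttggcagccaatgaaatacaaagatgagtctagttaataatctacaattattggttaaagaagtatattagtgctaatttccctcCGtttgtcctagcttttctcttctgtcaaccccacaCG
AFP: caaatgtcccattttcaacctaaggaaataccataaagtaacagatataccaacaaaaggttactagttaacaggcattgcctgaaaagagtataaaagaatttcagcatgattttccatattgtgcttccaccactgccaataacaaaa
The windows held 24 CG dinucleotides for LAMA5, 27 for FGFR3, 3 for ALB and 0 for AFP. Single genes can depart from the medians. The same window of VIM, a gene with a mean signal of 6.5, held 7 CG dinucleotides, as did that of TLR4, which was not detected. Presence of these letters is a description and says nothing about which factor acts there.

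The brightest genes were mostly those of the translation machinery and a family of small noncoding RNAs. Of the 25 genes with the highest mean signal, 10 encoded cytosolic ribosomal proteins and 6 were SNAR genes, which make short RNAs bound by the double-stranded RNA binding protein NF90. SNAR-A3 was the brightest of all, with log2 values of 10.99, 9.81 and 10.04. The SNAR copies are close in sequence, and whether their probes share transcripts was not tested. Of 12 SNAR genes measured, 9 were detected on all 3 arrays, 1 on only some, and SNAR-B1 and SNAR-I on none. The means of the members ran from 10.28 for SNAR-A3 to -5.8 for SNAR-B1. The other members of the 25 were RNA28SN5, which is 28S ribosomal RNA, the histone gene H4C3, MTRNR2L2, a nuclear copy of mitochondrial ribosomal RNA, the glutathione transferase gene GSTP1, the noncoding RNA FAM74A4, and SLC66A1, ZNF865, GPR155 and C5orf63.

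For 3 of these, bright signal rested on 1 probe. The brightest probe of C5orf63 gave 9.48, 8.49 and 8.62, while its other 4 probes lay between -6.11 and -6.90 and were not detected on any array. The brightest probe of GPR155 had a mean of 9.0 and its other probes -2.84 and -2.93. That of ZNF865 had 9.32 and the others -1.24 and -3.55. These genes are therefore not called bright, and SLC66A1 has only 1 probe to judge by.

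All 79 cytosolic ribosomal protein genes were detected on all 3 arrays, and 55 of them were among the 100 brightest genes. RPS2 of the small subunit was the brightest, with log2 values of 10.6, 9.33 and 9.56. Its 6 probes were all detected, at means between 3.35 and 9.83. RPL7A of the large subunit gave 10.18, 9.13 and 9.23. A single member stood apart: RPL27A, measured by 1 probe on chromosome 11 (8711092 to 8711151 on hg19, the build named in the array files), gave -2.38, -2.15 and -2.19, while the other 78 lay above 4. Ribosomal protein genes have many processed pseudogenes, and probes may read these as well.

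All 25 translation factors were also detected on all 3 arrays. EEF1A1, the elongation factor that brings aminoacyl-tRNA to the ribosome, gave 8.87, 8.64 and 8.65 and was detected by 6 of 6 probes. EEF2, the translocase, gave 7.61, 6.5 and 6.5. The muscle and neuron isoform EEF1A2 gave 3.03, 1.7 and 1.82.

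Transcripts of this machinery typically begin with a C followed by a run of pyrimidines, the terminal oligopyrimidine motif through which their translation responds to growth signals. A C at the first listed start followed by at least 4 pyrimidines (C or T) was found for 43 of 63 matched ribosomal protein genes (68.3%), for 4.67% of all 14876 matched genes, and for 12.7% of 228 other genes with a mean log2 above 6. EEF1A1 (minus strand, chr6:73521003-73521152) and RPL41 (plus strand, chr12:56116513-56116662) are shown, with the C and its pyrimidines at the start in capitals.
EEF1A1: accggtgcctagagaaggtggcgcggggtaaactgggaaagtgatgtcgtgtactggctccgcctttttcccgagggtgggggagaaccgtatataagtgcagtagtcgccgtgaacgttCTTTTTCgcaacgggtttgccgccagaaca
RPL41: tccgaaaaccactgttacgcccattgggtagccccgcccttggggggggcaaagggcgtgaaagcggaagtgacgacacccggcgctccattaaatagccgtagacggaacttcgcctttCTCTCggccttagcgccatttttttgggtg

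Genes of the cell cycle were uniformly present, and all 32 were detected on all 3 arrays. MCM7, a subunit of the replicative helicase, gave 7.61, 6.93 and 6.9, and BIRC5, which encodes the mitotic protein survivin, gave 6.75, 6.31 and 6.19. CDKN2A, the locus of the cell cycle inhibitor p16 and of ARF, gave 7.1, 6.22 and 6.17, and CDKN1A, the inhibitor p21, gave 0.32, -1.59 and -1.4. TERT, the catalytic subunit of telomerase, gave -0.36, -0.21 and -0.32. CDKN2A was among the brightest proliferation genes, and the means of CDKN1A and TERT lay below the 75th percentile.

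Of the 32 genes of the ERK cascade and its feedback, 25 (78.1%) were detected on all 3 arrays, against 70.1% of all protein-coding genes. The MAP2K1 probe (chromosome 15, 66783224 to 66783283 on hg19) gave 2.36, 2.34 and 2.42, with an SD of 0.04 between arrays. Whether the transcript of the plasmid holds the bases of this probe was not tested, so the value cannot be divided between the endogenous gene and the transgene. MAP2K2, which encodes MEK2, gave 3.84, 2.78 and 2.75, and the RAS genes HRAS and NRAS had means of 3.08 and -0.18. Of the RAF kinases, ARAF had a mean of 0.76 and BRAF of -1.89, all on the log2 scale and each from its brightest probe.

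Some genes of this list have transcripts that rise with ERK activity. The immediate early gene FOS gave -3.67, -2.92 and -2.87, and EGR1 gave -1.09, -0.68 and -1.09. The phosphatase gene DUSP6, a feedback inhibitor of ERK, gave -3.33, -1.7 and -2.01, and DUSP5 was detected on only some of the arrays, with -4.15, -3.39 and -3.03. ETV4 and ETV5, transcription factors downstream of the cascade, and SPRY4, an inhibitor of it, were also detected on only some arrays. DUSP4, SPRY2 and SPRY1 were detected on all 3 arrays above the 75th percentile, with means of 0.06, 0.94 and 1.23. The scaffold gene KSR2 was the only member not detected on any array.

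Of 20 kidney development factors, 11 (55.0%) were detected on all 3 arrays, below the 70.1% of all protein-coding genes. LHX1, a homeobox factor of the intermediate mesoderm and renal vesicle, was the brightest with log2 values of 2.57, 2.68 and 2.71. FOXD1, a factor of the renal stroma, gave 2.9, 2.2 and 2.24. Replicate 1 was the highest array for FOXD1 and the lowest for LHX1. The classical renal factors PAX2 and WT1 were also detected, at -1.51, -2.42 and -2.32 and -2.65, -1.82 and -1.92, and PAX2 was detected by 1 of its 2 probes. SIX2, which marks nephron progenitors, had a mean of -2.3.

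PAX8 and HNF4A, which act in tubule formation and maturation, had means of -5.52 and -6.33 with no probe well above background on any array. Among signals of the ureteric bud and the nephrogenic zone, BMP7 gave 4.04, 3.2 and 3.19, WNT11 1.12, 0.53 and 0.55 and GFRA1, a co-receptor for GDNF, 0.94, -0.12 and 0.27. WNT4 and WNT9B, which induce the nephron, were not detected. RET, the receptor kinase of the ureteric bud, was detected by 1 of its 2 probes, with a mean of -2.6.

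Markers of the tubule segments had no member with a mean above the 75th percentile. Of 15 proximal tubule markers, 7 (46.7%) were detected on all 3 arrays, against 70.1% of all protein-coding genes. The brightest was LRP2, the endocytic receptor megalin, with 0.03, -0.32 and -0.22, and its partner CUBN was detected on only some arrays. Of 9 markers of the loop and distal tubule, UMOD (11.1%), which encodes uromodulin, was the only one detected on all 3 arrays, at -2.36, -2.93 and -2.78. Without replicate 1, 3 of the 9 were detected on both remaining arrays. Of 11 collecting duct markers 3 (27.3%) were detected on all 3 arrays, with AQP2, the water channel regulated by vasopressin, and both sodium channel subunits SCNN1B and SCNN1G not detected. Podocyte markers were mixed. CLIC5 gave 3.63, 2.96 and 2.91 and PODXL 2.36, 2.38 and 2.36, while the slit diaphragm gene NPHS1 had a mean of -4.69, and PLA2R1 was not detected.

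Of 14 adrenal cortex markers 5 (35.7%) were detected on all 3 arrays and 8 (57.1%) on none, and of 12 markers of the medulla and sympathetic cells 5 (41.7%) and 6, against 70.1% and 20.3% of all protein-coding genes. NR5A1, the master factor of steroid-producing cells, STAR, which carries cholesterol into mitochondria, and the corticotropin receptor gene MC2R were not well above background on any array. Among cortex markers detected on all 3 arrays were the steroid-making enzyme genes CYP17A1 and CYP11A1, with means of -2.32 and -2.94. The brightest members have wider roles: SCARB1, a lipoprotein receptor, gave 5.44, 5.28 and 5.26, and FDXR, a mitochondrial electron carrier, gave 6.3, 4.77 and 4.66. Of the sympathetic and medullary markers, TH, the first enzyme of catecholamine synthesis, gave -0.34, -1.02 and -0.82 by 1 of 2 probes, and PNMT, the last, -0.31, -1.02 and -0.94. DBH and PHOX2A, which mark noradrenergic cells, were not detected.

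Neural genes were detected in shares at or below the 70.1% of all protein-coding genes. Of 26 genes of the neuronal cytoskeleton and synapse, 15 (57.7%) were detected on all 3 arrays, and of 20 neural progenitor and crest factors 14 (70.0%). UCHL1, a ubiquitin hydrolase abundant in neurons, was the brightest of all lineage genes with 7.91, 7.43 and 7.38. The light neurofilament gene NEFL gave 3.19, 2.77 and 2.76, and the neuronal tubulin gene TUBB3 3.28, 1.08 and 1.06. SOX3 and SOX2, factors of the early neural plate, gave 3.09, 2.22 and 2.08 and 2.27, 1.91 and 1.93. PAX6 gave 1.42, 1.46 and 1.25 for its brightest probe, and 2 of its 4 probes were detected on all 3 arrays.

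Other neuronal genes of the same lists were not detected. DCX, which marks migrating neurons, STMN2, SYN1 and SYP, genes of axons and synaptic vesicles, and the neuronal RNA-binding protein genes ELAVL2, ELAVL3 and ELAVL4 were not well above background on any array. The proneural factors NEUROG2 and NEUROD1, and SOX1 and SOX10, were likewise not detected. Of 10 glial markers 3 (30%) were detected on all 3 arrays, against 70.1% of all protein-coding genes. Without replicate 1, 6 of them were detected on both other arrays. CNP gave 6.79, 5.89 and 5.93, and GFAP and S100B were not detected.

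Of 24 epithelial genes 15 (62.5%) were detected on all 3 arrays, and of 20 mesenchymal genes 15 (75%), on either side of the 70.1% of all protein-coding genes. KRT18 and KRT8, which form the filaments of simple epithelia, gave 7.19, 7.03 and 7.05 and 4.88, 4.27 and 4.52, and KRT19 gave 6.41, 5.05 and 5.02. The mesenchymal filament gene VIM gave 6.86, 6.36 and 6.28. N-cadherin, CDH2, was detected by both of its probes with 2.53, 2.87 and 2.88, while E-cadherin, CDH1, was well above background on 1 array, with -5.81, -5.03 and -5.1, and the epithelial adhesion gene EPCAM was not detected. The epithelial genes ELF3, TJP3, OVOL1, RAB25 and KRT5 were not detected either. ZEB1, a repressor of CDH1, gave 0.69, 2.01 and 2.02 and SNAI1 -0.06, -0.34 and -0.47. ESRP2, an epithelial splicing factor, gave 1.39, 1.76 and 1.54, while its relative ESRP1 was not detected. Of the mesenchymal genes, FN1 gave -3.32, -3.3 and -2.92, and COL1A2, THY1, FAP and PDGFRB were not detected. CDH2 was thus detected on all 3 arrays and CDH1 on 1.

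Markers of tissues unrelated to the kidney were detected in part. Of 13 hepatocyte markers 2 (15.4%) were detected on all 3 arrays, APOA1 by 1 of its 2 probes and HP, and ALB, AFP, TTR and 7 others (76.9% in all) were not, against 70.1% and 20.3% of all protein-coding genes. Of 10 endothelial markers, 3 (30%) were detected, with a highest mean of -2.19, and PECAM1, KDR, TEK, TIE1, ERG, EMCN and CLDN5 were not. In the list of blood cell markers 9 of 17 (52.9%) were detected, among them CD79A at 2.61, 1.26 and 1.55, while CD34, HBB, GATA1, MS4A1 and ITGAM were not, and PTPRC, which encodes CD45, was detected by 1 of its 5 probes at a mean of -4.02. Markers of the same cell type thus disagreed. TNNT1, a troponin of slow muscle, was the brightest muscle marker with 4.77, 3.44 and 3.43.

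Of 12 pluripotency factors, 5 (41.7%) were detected on all 3 arrays, against 70.1% of all protein-coding genes. LIN28B, which blocks let-7 maturation, gave 2.03, 3.22 and 3.14, and the methyltransferase gene DNMT3B gave 2.37, 1.98 and 1.98 by 1 of 2 probes. NANOG, LIN28A, DPPA4, PRDM14 and L1TD1 were not detected, and POU5F1 had a mean of -3.01.

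Receptors determine which outside signals can reach ERK and other pathways. Of 58 receptor tyrosine kinases, 40 (69.0%) were detected on all 3 arrays, 8 on 1 or 2 and 10 (17.2%) on none, shares close to the 70.1% and 20.3% of all protein-coding genes. FGFR3 was the brightest with 3.86, 3.99 and 4.0, and FGFR2 and FGFR1 had means of 1.49 and 1.46, each by 2 of 3 probes. IGF1R gave 1.65, 2.28 and 2.06, the hepatocyte growth factor receptor MET 1.53, 2.13 and 2.04 and the insulin receptor INSR 0.99, 1.04 and 0.89. Of the EGF receptor family, ERBB2 gave 2.39, 1.36 and 1.28, while EGFR gave -1.68, -1.88 and -1.56 by 2 of 3 probes. ERBB3 gave -2.39, -2.93 and -2.8 by 2 of 3 probes and ERBB4 -2.32, -1.06 and -1.0 by 1 of 2 probes. EGFR, the receptor for EGF, was thus detected on all 3 arrays below the 75th percentile.

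Receptor kinases not detected on any array included the vascular receptors KDR, TEK and TIE1, the PDGF receptor PDGFRB, ALK, ROS1, MST1R, EPHA6 and INSRR. KIT was detected by 1 of its 3 probes, with -1.63, -0.9 and -1.1. In the TGF-beta family 12 of 14 receptors (85.7%) were detected on all 3 arrays, against 70.1% of all protein-coding genes. Their median signal was -2.04, and 3 lay above the 75th percentile. The brightest was BMPR1A, at 0.94, 1.39 and 1.24 by 5 of 5 probes.

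Of 29 frizzled, LRP, Notch and Hedgehog pathway receptors and ligands, 27 (93.1%) were detected on all 3 arrays, against 70.1% of all protein-coding genes. NOTCH2 gave 3.54, 3.87 and 3.8, the Hedgehog transducer SMO 3.77, 2.97 and 2.96, and FZD2, a receptor for WNT proteins, 3.19, 2.41 and 2.48. All 10 frizzled genes were detected on all 3 arrays. The vascular Notch ligand gene DLL4 was not detected, and LGR5 was detected on only some arrays.

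The next 4 lists hold mostly G protein-coupled receptors, and the first of them also holds receptors of the cytokine type such as LEPR. Of 43 peptide hormone receptors 10 were detected on all 3 arrays and 24 on none, of 35 aminergic receptors 12 and 15, of 22 chemokine receptors 8 and 13, and of 33 purine, lipid and protease receptors 13 and 9. The share of undetected genes in each of these lists, between 27.3% and 59.1%, was above the 20.3% of all protein-coding genes. Among those detected were the adrenergic receptor gene ADRA2C, with 2.28, 1.92 and 1.98, the muscarinic receptor gene CHRM3, with -1.1, -0.76 and -0.73 by 1 of 2 probes, the sphingosine phosphate receptor gene S1PR2, with 1.92, 1.55 and 1.45, the adenosine receptor gene ADORA2B, with 1.35, 1.31 and 1.27, and the chemokine receptor gene CXCR4, with 2.09, 1.08 and 0.88. OPRM1, the mu opioid receptor, GLP1R, a receptor for an incretin hormone, AVPR2, the vasopressin receptor of the kidney, and DRD1, a dopamine receptor, were not well above background on any array.

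The leptin receptor gene LEPR stood out among peptide hormone receptors at 6.16, 6.01 and 6.11, but this was the brightest of 4 probes, and the others had means of -1.41, -2.21 and -5.60. The level of this gene was therefore not settled by these arrays.

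Of 48 nuclear receptors, 28 (58.3%) were detected on all 3 arrays, against 70.1% of all protein-coding genes. The orphan receptor NR2F6 gave 5.92, 5.28 and 5.31 and RXRA, the common partner of other nuclear receptors, 4.59, 3.84 and 3.84. The glucocorticoid receptor gene NR3C1 gave 2.83, 3.21 and 3.2 by 3 of 3 probes. ESR1 and PGR, receptors for estrogen and progesterone, were detected on only some arrays, with means of -3.46 and -5.06, and ESR2 was not detected. Of the immediate early genes of this family, NR4A1 was not detected, and NR4A2 and NR4A3 were detected on all 3 arrays, with means of -2.2 and -2.86.

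Innate sensors sit at membranes or in the cytosol and signal through shared adaptors. Of 10 toll-like receptors, TLR5, the flagellin receptor, was the only one detected on all 3 arrays, with -1.59, -2.79 and -2.53 by 1 of 2 probes. TLR2, TLR4, TLR6, TLR7, TLR8 and TLR10 and the TLR4 co-receptor gene LY96 were not detected. The cytosolic DNA sensor gene CGAS was not detected either, while its partner STING1 gave 2.05, 1.61 and 1.54. The adaptor genes were present, with MAVS at 3.93, 3.23 and 3.31 by 7 of 7 probes and TICAM1 at 3.1, 2.73 and 2.63, and the RNA sensor genes RIGI and IFIH1 were detected at means of -2.2 and -1.89. Receptors for interferons were detected for type I (IFNAR1 -0.36, IFNAR2 1.86), type II (IFNGR1 0.74, IFNGR2 0.11) and type III (IFNLR1 0.57, by 2 of 3 probes). Of 32 cytokine receptors, 20 (62.5%) were detected on all 3 arrays, against 70.1% of all protein-coding genes.

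Among death receptors, TNFRSF10B, a receptor for TRAIL, gave 3.67, 3.16 and 3.3, and FAS gave -0.5, 0.03 and -0.31 by 3 of 3 probes. The ligand genes TNFSF10 and FASLG were not detected.

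Of 24 basement membrane genes, 21 (87.5%) were detected on all 3 arrays by at least 1 probe, against 70.1% of all protein-coding genes, 14 by every probe, and 16 lay above the 75th percentile. LAMA5, a laminin chain of mature basement membranes, gave 6.84, 6.48 and 6.8 by both probes. Its partner chains LAMB1, detected by 2 of 3 probes, and LAMC1 had means of 2.16 and 2.92. COL4A2 gave 4.11, 3.89 and 3.85, while COL4A1, the chain with which it assembles, gave -0.06, 0.2 and 0.19 by a probe of its own. COL4A3 and COL15A1 were not detected. Of 30 interstitial matrix genes 19 (63.3%) were detected, with COL6A1 at 4.86, 3.82 and 3.92 and COL5A1 at 4.21, 3.73 and 3.71 by 3 of 3 probes, and DCN, POSTN, SPP1, COL6A3, COL5A3, COL1A2 and COL11A1 not detected. COL6A1 and COL5A1 thus gave bright signal beside undetected chains of the same collagens, COL6A3 and COL5A3. Other chains of these collagens were detected on all 3 arrays, COL6A2 by both of its probes and COL5A2 by its only probe.

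Of 26 integrin subunits, 17 (65.4%) were detected on all 3 arrays, close to the 70.1% of all protein-coding genes. ITGB1, the beta chain shared by most integrins, gave 0.39, 1.07 and 0.95. ITGAV gave 1.11, 1.81 and 1.73 and ITGB5, with which it binds vitronectin, 1.71, 1.47 and 1.47. The laminin receptor chain ITGA7 gave 2.48, 1.72 and 1.81 and ITGA6 -0.07, -0.15 and -0.23. ITGB6, ITGA8, ITGA2 and the leukocyte chains ITGAM, ITGAX and ITGAD were not detected. Other leukocyte chains were detected on all 3 arrays: ITGAE with a mean of 1.99, ITGA4 with -1.93 by 1 of 3 probes, ITGB7 with -3.41, and ITGB2 by 2 of 3 probes. ITGAL was detected on only some arrays.

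Of 23 cadherins, 9 (39.1%) were detected on all 3 arrays and 11 (47.8%) on none, against 70.1% and 20.3% of all protein-coding genes. CDH22 gave 3.87, 3.05 and 3.19, and apart from it and CDH2 the only cadherin above the 75th percentile was CDH3, with 0.63, -0.16 and -0.13. CDH16, the cadherin of kidney tubules, was not detected, and CDH6, of the early nephron, was detected on only some arrays. Of 31 claudin and tight junction genes, 15 (48.4%) were detected on all 3 arrays. F11R, an adhesion molecule at tight junctions, gave 3.93, 3.14 and 3.15 and TJP1, the scaffold ZO-1, 0.81, 1.37 and 1.46, while among claudins CLDN19 was the brightest at 1.25, 0.17 and 0.37 by 1 of 2 probes. CLDN1 was detected on only some arrays, with -3.89, -2.33 and -2.35.

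Of the desmosome genes, DSP gave 3.26, 3.69 and 3.56 and JUP 3.65, 2.34 and 2.37, and the epidermal cadherins DSG1, DSG3, DSG4 and DSC1 were not detected. The tetraspanin genes CD151 and CD81 were the brightest of the other adhesion genes, with 7.58, 6.64 and 6.73 and 6.69, 5.83 and 5.85. CADM1 gave 3.09, 3.71 and 3.67, and VCAM1 and the CEACAM5 and CEACAM6 genes were not detected. The brightest of 3 probes of NCAM1 gave 1.01, 1.33 and 1.42, and its others had means of -3.21 and -4.89. ICAM1 was detected on only some arrays.

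Metabolic genes gave signal throughout central carbon metabolism. Of 29 glycolytic genes, 24 (82.8%) were detected on all 3 arrays, against 70.1% of all protein-coding genes. LDHB gave 7.34, 7.72 and 7.81, TPI1 7.85, 6.82 and 6.84, GAPDH 7.71, 6.84 and 6.91, ENO1 7.06, 6.45 and 6.44 and LDHA 6.08, 6.36 and 6.25. Genes not detected included PKLR of liver, HK3, and PGK2 and GAPDHS of sperm. Of the hexokinases, HK1 gave 3.29, 2.78 and 2.79 and HK2 0.2, 0.68 and 0.66, the latter by 1 of 2 probes. The main glucose transporter gene SLC2A1 gave 1.96, 1.56 and 1.52 by 1 of 2 probes, and SLC2A2 of liver and kidney was not detected.

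Of 16 gluconeogenesis and glycogen genes, 11 (68.8%) were detected on all 3 arrays and 5 (31.2%) on none, against 70.1% and 20.3% of all protein-coding genes. G6PC1, the liver and kidney glucose-6-phosphatase, FBP2, GYS2 and PYGM were not detected, while the ubiquitous G6PC3 gave 1.27, 0.49 and 0.64 and GYS1, the common glycogen synthase, 3.49, 2.85 and 2.81. PCK1 had a mean of -2.59 and FBP1 of -3.31. Of the urea cycle, ASS1, which joins citrulline and aspartate, gave 4.47, 3.29 and 3.29 by both probes, CPS1 gave 0.06, -0.04 and -0.01, and OTC, which links these steps in the liver, was not detected.

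Of 31 genes of the citrate cycle and pyruvate dehydrogenase, 30 (96.8%) were detected on all 3 arrays, against 70.1% of all protein-coding genes, with CS, the citrate synthase, at 6.48, 6.2 and 6.22 and SDHA at 6.24, 5.83 and 5.84 by 4 of 4 probes. The exception was PDHA2, the testis form of the E1 alpha subunit, while PDHA1 gave 5.54, 5.54 and 5.33. OGDH had a mean of -2.98 by 1 probe, and PDK4, a kinase that shuts pyruvate dehydrogenase, -2.2. All 26 nucleotide synthesis genes were detected, with TK1, the thymidine kinase of dividing cells, at 7.69, 7.1 and 7.01 and APRT, of purine salvage, at 7.46, 6.72 and 6.67. HPRT1 gave 4.19, 4.43 and 4.28. The only other lists detected in full were those of ribosomal protein, translation factor and proliferation genes.

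Of 22 serine and one-carbon genes 20 (90.9%) were detected, against 70.1% of all protein-coding genes, led by TYMS with 6.68, 5.95 and 5.92 and SHMT2 with 5.41, 4.93 and 4.78, and PHGDH, the first enzyme of serine synthesis, gave 5.08, 4.25 and 4.21. BHMT, of liver and kidney, was not detected. Of 16 glutamine and asparagine genes 14 (87.5%) were detected, with GOT2 at 6.35, 5.75 and 5.7 and ASNS at 4.76, 4.62 and 4.42. Lipid synthesis was likewise covered: of 27 cholesterol synthesis genes 24 (88.9%) were detected, with EBP at 6.0, 5.59 and 5.48, and of 35 fatty acid genes 28 (80.0%), with FASN at 4.7, 4.0 and 4.01. The fatty acid binding protein genes FABP1, FABP2, FABP4 and FABP7 were not detected, and FABP5 gave 2.48, 2.98 and 3.04.

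Of 31 genes of cytochrome P450 drug metabolism, 19 (61.3%) were detected on all 3 arrays, against 70.1% of all protein-coding genes, and 6 lay above the 75th percentile. POR, the electron donor of these enzymes, gave 6.11, 5.23 and 5.4, CYP2R1, a vitamin D 25-hydroxylase, 2.44, 2.74 and 2.68 and CYP1B1 0.47, 1.38 and 1.3. Liver enzymes of this list were split. CYP3A4, CYP2C8, CYP2C19, CYP7A1 and CYP8B1 were not detected, while CYP3A7, CYP3A5, CYP2B6, CYP2D6 and CYP1A2 were detected on all 3 arrays, with means of -2.1, -2.29, -2.68, -2.94 and -3.59. NQO1, a quinone reductase, was detected on only some arrays, with -4.21, -4.33 and -5.1.

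Stress genes were detected except CA9, the carbonic anhydrase induced by hypoxia. HSP90AA1 gave 6.16, 7.55 and 7.51, ATF4 6.84, 6.68 and 6.68 and ATF3, a target of ATF4, 4.6, 4.08 and 4.0 by 4 of 4 probes. The near-identical HSPA1B and HSPA1A gave 6.1, 5.92 and 5.93 and 0.32, -0.62 and -0.77, and transcripts of either may bind both probes.

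Detection of a gene often depended on the probe. Among 1562 genes with 3 or more probes of which at least 1 was detected on all 3 arrays, 529 (33.9%) had another probe not detected on any. This held for 32 of the 129 list genes with 3 or more probes, among them KIT, IL4R, MUC2, VWF, PTPRC, SCD5, EPHA10 and NTRK3. Counted by genes of which every probe was detected, the protein-coding genes fell from 13000 to 11055, the lineage genes from 142 to 108 and the receptor genes from 194 to 146.

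The 3 arrays differed in brightness and by slide. Replicate 1 was hybridized on 1 slide and replicates 2 and 3 on another, and their 75th percentiles were 285, 816 and 695 units of processed signal. Across 14240 genes whose brightest probe was detected on all 3 arrays, the correlation between replicates 2 and 3 was r = 0.996, and those of replicate 1 with them were 0.955 and 0.96. Genes share the arrays, so these are descriptions across genes. Differences on the log2 scale had an SD of 0.23 between replicates 2 and 3, 0.78 between 1 and 2, and 0.73 between 1 and 3. Replicate 1 exceeded the mean of the others by a median of 0.93 in the 25 brightest genes and 0.39 in the brightest 25% of genes. The median was 0.03 in the next to dimmest 25% and 0.4 in the dimmest 25%. Genes had to be detected on replicate 1, whose lowest detected signal (-3.86) was above those of replicates 2 and 3 (-5.44 and -4.92). Dim genes that read low on replicate 1 were thus left out, which can raise the value of the dimmest 25%. The slide and replicate 1 cannot be told apart. The median SD over the 14240 genes was 0.341, and 258 genes (1.81%) had an SD above 1.

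The 10 genes with the largest SD between arrays were DOHH, H2BW2, STARD9, CCN2, MYBPH, C1QTNF5, CHLSN, SCN3A, ITIH6 and KIAA0087. DOHH, an enzyme that modifies the translation factor eIF5A, gave 11.38, 0.6 and 0.7, and the histone gene H2BW2 gave 10.37, 0.07 and 0.06. On replicate 1 these were the spots in row 383, column 106 and row 384, column 105 of an array of 384 rows, which touch at a corner. The spot in row 383, column 105, which borders both, belongs to TRMT2A, which was chosen here because of its position and values, and gave 9.16, 0.54 and 0.61. The scanner software marked the TRMT2A spot as uneven, so it was left out, but not the other pair. The DOHH spot was the only saturated probe spot of the 3 arrays. Among the 20 other spots within 2 rows and 2 columns of DOHH and H2BW2, the difference of replicate 1 from the mean of the others ranged from -1.81 to 2.95. Its median was 1.12, against 0.237 over the 14240 genes. The 20 spots were taken whether or not they were detected, while the 14240 genes were detected on all 3 arrays. These medians are therefore not alike, and whether the 20 spots were raised by their position was not tested. The high values of replicate 1 for DOHH, H2BW2 and TRMT2A thus lie on spots that touch. On the other arrays, DOHH and H2BW2 were near the 75th percentile.

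CCN2, a matrix protein gene induced by serum, was lower on replicate 1, with -1.72, 1.75 and 1.47. The difference of replicate 1 from the mean of the others was -3.34 on the log2 scale. Of the 14240 genes, 69 were more than 4-fold higher on replicate 1 than on the mean of the others and 19 more than 4-fold lower, while replicate 2 exceeded replicate 3 by more than 4-fold for 1 gene and fell below it for 19.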

How the data were processed

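RNA from 3 independent experiments on HEK293 cells with HA-tagged MEK1 WT was labelled with Cy3 and hybridized to 1-colour Agilent arrays. The deposited intensity values are, per the file headers, background-corrected processed signals of Agilent Feature Extraction 10.10.1.1. Per the file headers, the same files hold other marks for each spot, namely well above background, significant over background, saturated, uneven and population outlier. A deposited table of log2 values made by the authors was used as an alternative only. Set against the arrays, it equals the values used here less 1 constant per array to within 0.02 for at least 99.6% of probes, and its centring is not stated.

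Control spots and spots marked uneven or outlier (302, 278 and 501) were left out, spots of 1 probe were averaged, and log2 signal minus the array's 75th percentile was taken. Each array had 62975 spots, and precision is limited by their number, 3. Probes were named by symbol and matched to RefSeq genes (21367). The members and gene lists were chosen with earlier results of these data known. Genes were named by a rule: the 25 brightest, the 10 with the largest SD, and the leading and undetected members of each list. List genes of 3 or more probes that disagreed were named too, and TRMT2A and the dimmer or intermediate list members given above were added after their values were seen. With 1 group, no test was made. Alternatives were normexp, quantile normalization, the deposited table, scaling on detected probes, other detection rules, the mean of probes, kept marked spots, and each array left out. Not used were the 6 arrays of mutant cells and 6 other columns of the deposited table. HBA1, LYZ, TDGF1, P2RY11, CYP2A6 and EIF2S3 were listed but are not analysed here. Python 3.11.15, numpy 2.4.6, pandas 2.3.3, R 4.3.3 and limma 3.58.1 were used. Some list members are counted but not reported here by name.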

Additional observations from a re-analysis of the deposited data

How the results depend on the processing

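The number of genes detected on no array, 4886, fell to 1727 with significance over background in place of well above background, and lay between 4872 and 5361 under the other alternatives. The median SD between arrays ranged from 0.066 (without replicate 1) to 0.412 (without replicate 3) as each array was left out, and from 0.302 to 0.369 under the alternatives that kept all 3 arrays. Without replicate 1 only the arrays of 1 slide remain. Genes detected on all 3 arrays numbered 12530 to 16779, and ribosomal protein genes among the 100 brightest 45 to 57. By the mean of a gene's probes, detected lineage genes fell from 142 to 112 and receptor genes from 194 to 156, and by significance they were 198 and 263. Counts of detected members moved by over 1.5 times in 10 of 57 lists by significance in 8 of 57 by the mean of probes, and in 2 of 57 each with detection on at least 2 of 3 arrays and without replicate 1. Those 2 lists were the loop and distal tubule markers, from 1 to 3 in both cases, and the glial markers, from 3 to 7 and to 6. Scaling on detected probes moved the median of all genes by -1.76, so signals above or below the 75th percentile depend on that scale. Of 1281 mean signals, 1267 moved by more than their SD between arrays under that scaling, 718 in the deposited table, 646 with normexp, 335 with the mean of probes and at most 8 otherwise. Of the 100 brightest genes, 66 were shared under the mean of probes and at least 95 under each other alternative. No paired analysis was possible because only 1 group was analysed. Dim genes are limited by signal over background, most of all on replicate 1.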

Other observations

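Outside the protein-coding genes, detection differed by class of RNA. Of 302 small nucleolar RNA genes, which guide the modification of ribosomal RNA, 195 (64.6%) were detected on all 3 arrays, against 635 of 1691 long noncoding RNA genes (37.6%). Many small nucleolar RNAs lie within introns of host genes, and a probe may read the host transcript as well. This was not tested.

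Over the autosomes and chromosome X, the share of protein-coding genes detected on all 3 arrays ran from 61.0% on chromosome 4 to 78.8% on chromosome 22. Of 10 spike-in control probes, 7 were well above background on all 35 of their spots on each array, with mean log2 signals from -3.05 to 7.2. Their signal on replicate 1 exceeded the mean of the other arrays by 0.08 to 0.47.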
